A study of Mus musculus with 37 samples.

Results

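The nuclear-encoded genes of oxidative phosphorylation were examined in RNA sequencing libraries of the ureter and bladder of female BALB/c mice. Genes were taken by symbol: every row of the deposited count table whose name begins with Nduf followed by a, b, c, s or v and a digit, with Uqcr, with a cytochrome c oxidase subunit name from Cox4 to Cox8, or with Atp5, together with Sdha, Sdhb, Sdhc, Sdhd and Cycs. This rule took 85 of 24421 genes: 37 named for complex I, 4 for complex II, 8 for complex III, 1 for cytochrome c, 18 for complex IV and 17 for complex V. No measured value entered the rule, and none of the genes encoded by the mitochondrial genome had a row in the table.

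All mice were of WT genotype. Mice given 0.05% N-butyl-N-(4-hydroxybutyl)nitrosamine (BBN), a bladder carcinogen, in drinking water from an age of 6 to 7 weeks for 17 to 20 weeks gave cancerous ureters (UT, 11 libraries), noncancerous ureters (UN, 7) and bladders (BB, 10). Mice on tap water gave healthy ureters (U, 6 libraries, right and left ureter of 3 mice) and bladders (B, 3 libraries from the same 3 mice). Libraries came from whole tissue, so that fewer cells of a type and less RNA per cell could not be told apart. Both ureters of BBN mouse 5 were UT libraries, so that ureters of 1 mouse occurred in UT as well as in U.

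Oxidative phosphorylation runs on the inner mitochondrial membrane. Complexes I and II pass electrons from NADH and succinate to ubiquinone, complex III passes them to cytochrome c, complex IV passes them to oxygen, and complex V, the ATP synthase, uses the proton gradient so made. Several complex IV subunits exist as a ubiquitous form and a form restricted to muscle or brown fat, among them Cox8a and Cox8b, or Cox7a2 and Cox7a1. Brown adipocytes are rich in mitochondria, and the fat around the urinary tract can carry either white or brown adipocytes.

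Among the members called in U against B, Cox8b had the largest difference, and Cycs and Sdhb were higher in U as well. The bases just before the transcription start of these genes and of Cox8a, the partner of Cox8b, are shown to let the restricted form be read beside genes that every cell uses (RefSeq, GRCm38.p6, 150 bases each, 5′ to 3′ on the strand of the gene). Capitals mark matches on either strand to GCATGCGC (core of the motif of the transcription factor NRF1), CCGGAAG (an ETS factor motif), CCAAT (the CCAAT box) or TATAAA (the TATA box). The stretches lie at chr6:50566570-50566719 on the minus strand for Cycs, at chr4:140961121-140961270 on the plus strand for Sdhb, at chr19:7217617-7217766 on the minus strand for Cox8a and at chr7:140900447-140900596 on the minus strand for Cox8b.
Cycs: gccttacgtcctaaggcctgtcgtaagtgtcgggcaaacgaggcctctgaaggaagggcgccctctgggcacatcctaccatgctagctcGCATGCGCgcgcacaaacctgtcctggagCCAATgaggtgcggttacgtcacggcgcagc
Sdhb: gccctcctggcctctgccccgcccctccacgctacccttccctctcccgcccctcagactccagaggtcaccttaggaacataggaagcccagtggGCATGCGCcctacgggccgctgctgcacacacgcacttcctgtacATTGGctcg
Cox8a: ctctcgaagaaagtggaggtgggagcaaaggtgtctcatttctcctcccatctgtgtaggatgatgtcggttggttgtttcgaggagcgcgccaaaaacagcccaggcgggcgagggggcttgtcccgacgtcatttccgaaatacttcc
Cox8b: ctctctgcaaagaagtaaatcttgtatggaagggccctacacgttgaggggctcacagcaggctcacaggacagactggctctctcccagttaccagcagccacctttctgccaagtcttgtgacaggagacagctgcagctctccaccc
GCATGCGC began 60 bases before the start of Cycs and 54 bases before that of Sdhb, CCAAT matched 31 and 9 bases before their starts, and none of the 4 motifs was found in the 150 bases of Cox8a and Cox8b. In the longer windows described next, Cox8a held CCGGAAG and CCAAT and Cox8b held TATAAA, and CCAAT also began 137 and 74 bases before the start of Cox7a1, another restricted form. In windows of 300 bases (250 before to 50 after the start), GCATGCGC or its reverse complement GCGCATGC stood in 11 of the 67 member genes with a RefSeq entry (16.4%) and in 3.05% of all 27025 genes with one. Both strands were searched for each motif, and the forward and reverse forms of GCATGCGC share part of their letters. CCGGAAG or CTTCCGG stood in 16 of the 67 (23.9%) against 9.93%, and CCAAT or ATTGG stood in 44.8% against 41.1%. AAGATGGCG or CGCCATCTT, a YY1 motif, stood in 10.4% against 1.64%, and TATAAA or TTTATA stood in 10.4% against 15.7%. These letters describe the windows and say nothing about binding.

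Total estimated counts were between 3557697 and 18793560 per library. RNA integrity numbers (RIN, on which 10 stands for intact RNA) were between 5.5 and 8.9 in UT, between 4.7 and 8.2 in U and between 6.9 and 8.6 in B. UN 6 had a RIN of 3.2, with 5.7 to 7.2 in the other UN libraries, and BB 1, BB 3 and BB 4 had 3.2, 2.6 and 3.2, with 6.4 to 8.9 in the other BB libraries. P-values measure the spread between these libraries. The library name of BB 6 carries the letter T of the cancerous samples, and that library was left out of the fits, as was UT 9, the UT library with the highest sum of the 85 genes, which left 10 UT libraries. The reason for leaving out UT 9 is not given in the sources used here, and values with it are given beside the results that it moves. Tissue labels were checked by 9 urothelium markers (uroplakins and keratins), whose summed CPM (counts scaled to the total of a library) was 17660 to 18520 in B, 1254 to 2524 in U and 673 to 5236 in UT. In UN they summed to 19.6 in UN 2, the lowest of all libraries, in which Upk2, a urothelial uroplakin, was at 0.27 CPM. In BB the 9 markers summed to 720 to 6135 CPM, which overlapped U and UT, so that they did not tell BB from the ureters.

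Summed over the 85 genes, CPM was higher in every U library than in every B library. In U the sum was 24558 at the lowest, 27690 at the median and 38481 at the highest, and in B it was 13655, 14944 and 13499. In UT the sum ranged from 12874 to 26070 with a median of 19480, and in UN from 16806 to 39813 with a median of 23880. The U and B libraries did not overlap, while UT and UN overlapped between 16806 and 26070. Among the BBN bladders, the 6 libraries with a RIN of 5 or more in the fit lay between 14199 and 19610, while BB 1, BB 3 and BB 4 had 44118, 29453 and 47209. BB 6, with a RIN of 7.8, had 43360. As a share of all counts the 85 genes took 2.46% to 3.85% in U and 1.35% to 1.49% in B.

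**Figure D1:**
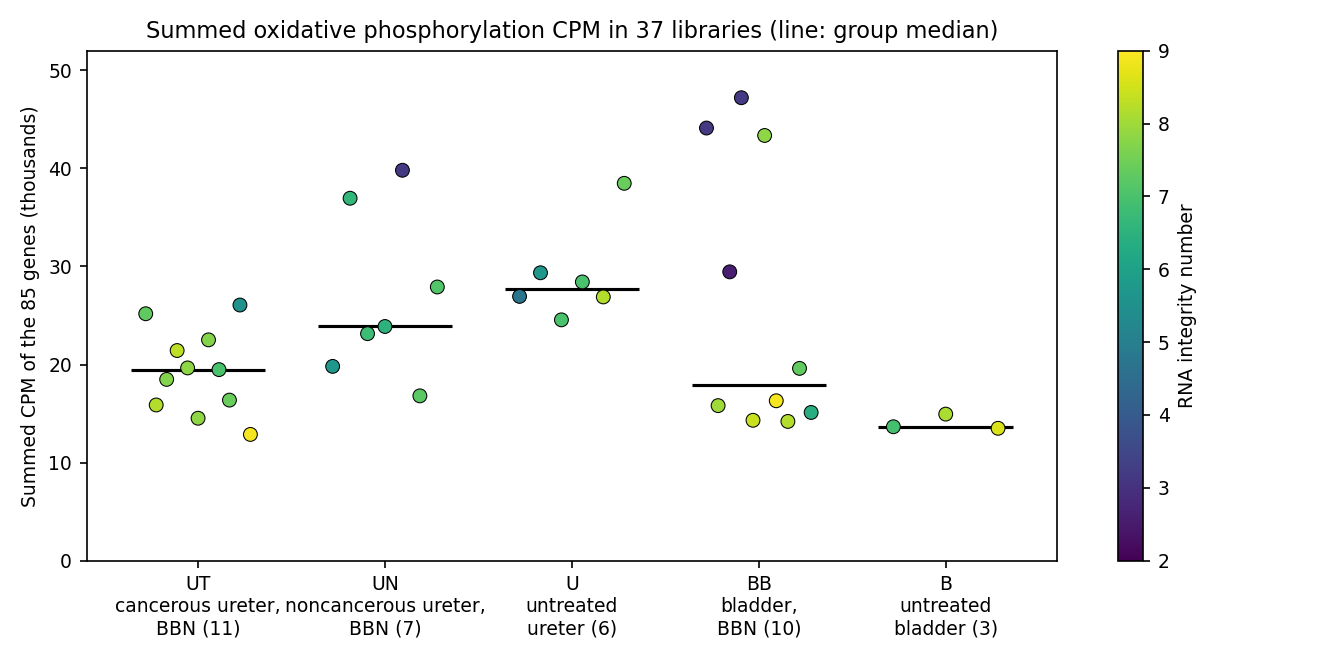
Summed CPM of the 85 genes (vertical axis, kCPM) in each of 37 libraries (points) by group, with the group median as a line and the RIN as colour. The U points lie at 24558 or above and the B points at 14944 or below, and the BB points at 29453 or above are BB 1, 3, 4 and 6.

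Per kilobase of transcript, which allows levels to be compared between genes, Atp5b, the catalytic beta subunit of the ATP synthase, had the highest mean in U (1603 CPM per kb), followed by the complex IV subunits Cox6c (1480), Cox8a (1330) and Cox4i1 (1320). In B the highest means per kb were those of Cox4i1 (807.8), Atp5b (683.5) and Uqcr10 (632.4), a small subunit of complex III. Cox8b stood at 501.7 CPM per kb in U and at 2.23 in B.

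Ureter against bladder without carcinogen was the comparison with the most members called. Of 82 members tested, 79 were higher in U than in B and none was lower at a false discovery rate (FDR) under 0.1 from edgeR, where 31.7% of all 15328 genes tested were called higher and 33.1% lower. At a fold of at least 2 as well, 69 members were higher against a background of 15.7% and none lower against 14.3%. The median log2 fold change was 1.44 over the members and -0.02 over all genes. In CPM, 71 members did not overlap between the groups with U higher, against 16.1% of all genes, and 3 with U lower (Atp5g1, Atp5s and Cox7a2l), against 47.3%. The same 79 members were called by DESeq2 (33.1% of all genes higher), and by edgeR with the 2 ureters of a mouse summed and mouse as a replicate block (32.6%).

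All 37 complex I genes were higher in U. Ndufs1, the largest core subunit of complex I, had 99.7, 102 and 104 CPM in B and 256 to 361 CPM in U with a median of 332, a log2 fold change of 2.03 ± 0.13 (SE, adjusted p = 1.2e-07, edgeR). Ndufb9, an accessory subunit, had 2.02 ± 0.23 (adjusted p = 1.2e-05, edgeR). The smallest difference in complex I was that of Ndufa4l2 at 0.71 ± 0.20 (adjusted p = 0.0076, edgeR), a paralogue of Ndufa4 known from hypoxic cells. Ndufa4 itself, named for complex I but known as a subunit of complex IV, had 1.72 ± 0.22 (adjusted p = 3.2e-05, edgeR).

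All 4 genes of complex II, succinate dehydrogenase, were higher in U. Sdha, the flavoprotein that oxidises succinate, had 438, 452 and 462 CPM in B and 1004 to 1421 CPM in U. The groups did not overlap, and the log2 fold change was 1.85 ± 0.15 (adjusted p = 4.9e-07, edgeR). Sdhb, the iron-sulfur subunit, had 162 to 183 CPM in B and 459 to 779 CPM in U (2.13 ± 0.21, adjusted p = 3.5e-06, edgeR). Of the membrane anchors, Sdhc had 1.17 ± 0.16 and Sdhd 1.56 ± 0.18 on the log2 scale.

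All 8 complex III genes and cytochrome c were higher in U as well. Uqcrfs1, the Rieske iron-sulfur protein, had the largest difference in complex III at 2.37 ± 0.20 (adjusted p = 8.5e-07, edgeR), with 122 to 142 CPM in B and 379 to 653 CPM in U. Cycs, the mobile carrier between complexes III and IV, had 198, 223 and 191 CPM in B and 642 to 1140 CPM in U with a median of 862. Its log2 fold change was 2.50 ± 0.21 (adjusted p = 9.2e-07, edgeR), the third largest of the members.

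In complex IV, 14 of 15 genes tested were higher in U. Cox8b, the form of subunit 8 known from heart, skeletal muscle and brown fat, had 0.77, 1.40 and 0.24 CPM in B and 118 to 264 CPM in U with a median of 179, a log2 fold change of 8.22 ± 0.51 (adjusted p = 8.7e-08, edgeR). Its ubiquitous partner Cox8a had 306, 348 and 316 CPM in B and 597 to 1091 CPM in U (1.58 ± 0.23, adjusted p = 8.3e-05, edgeR). Cox7a1, the muscle and brown fat form of subunit 7a, had 1.14 to 1.80 CPM in B and 3.14 to 16.1 CPM in U (3.15 ± 0.51, adjusted p = 0.0002, edgeR), and its partner Cox7a2 had 1.54 ± 0.23. Cox7a2l, which takes part in the assembly of supercomplexes, was the exception at -0.11 ± 0.15 (adjusted p = 0.56, edgeR). Cox6a2, Cox7b2 and Cox8c, other restricted forms, did not pass the filter on low counts in these libraries.

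In complex V, 15 of 17 genes were higher. Atp5b had 1317, 1358 and 1255 CPM in B and 2748 to 3290 CPM in U (1.62 ± 0.16, adjusted p = 2.7e-06, edgeR). Atp5a1, the alpha subunit, had 1.04 ± 0.14 and Atp5c1, the central gamma subunit, 1.17 ± 0.18. Atp5g1, which is 1 of several genes for the c subunit of the rotor, was not called (-0.14 ± 0.17, adjusted p = 0.49, edgeR), whereas Atp5g3, for the same protein, was higher at 1.45 ± 0.19 (adjusted p = 3.2e-05, edgeR). Atp5s, which like Atp5sl carries the name without being a structural subunit of the enzyme, was the other gene not called (-0.01 ± 0.12). Scaling by library totals alone lowered the median of all genes by 0.38 on the log2 scale; under it 74 members were higher, and Atp5g1, Cox7a2l and Atp5s were called lower.

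**Figure D2:**
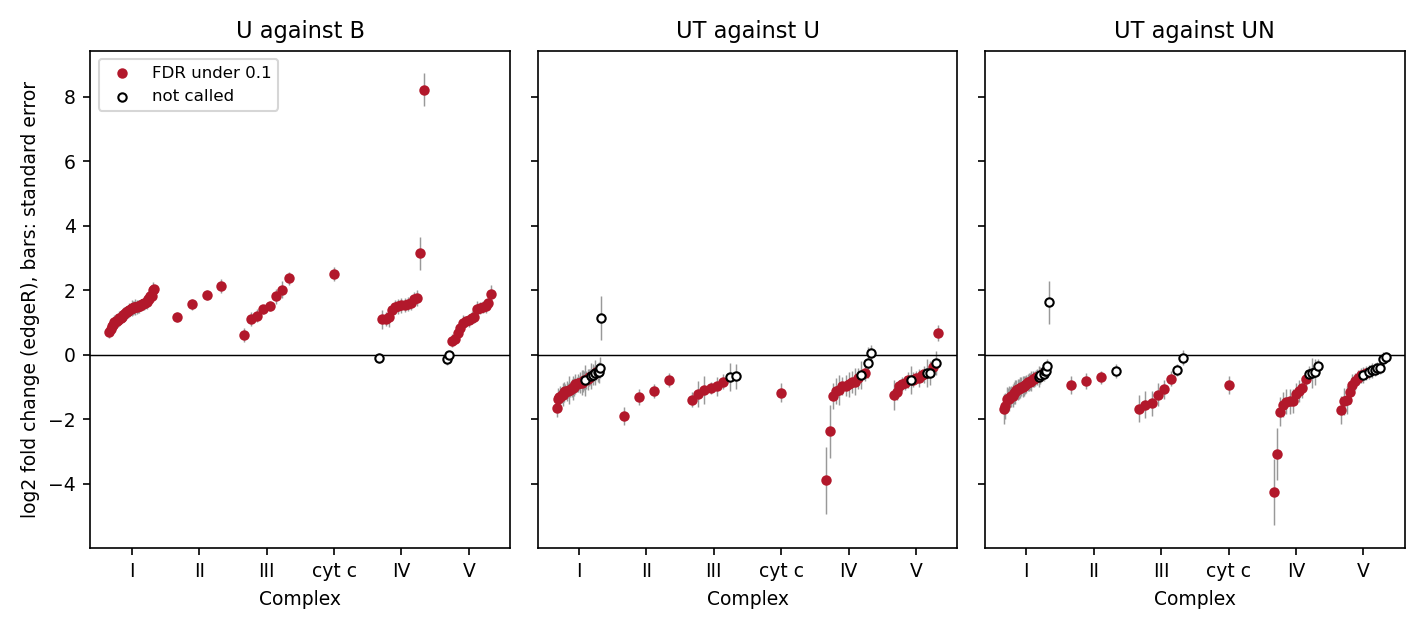
Log2 fold change from edgeR (vertical axis, bars give the standard error) of each member tested, by complex (horizontal axis), for U against B, UT against U and UT against UN; filled points passed an FDR of 0.1. Nearly all points lie above 0 in U against B and below 0 in the other panels, and the outermost points of complex IV are Cox8b and Cox7a1.

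The ureter and bladder libraries also differed in fat. Of 8 white adipocyte markers all 8 were higher in U, and their summed level was 53390 to 78090 CPM in U and 478 to 2591 CPM in B. Of 8 brown adipocyte markers 6 of 7 tested were higher, and they summed to 1228 to 1637 CPM in U and 17.3 to 40.3 CPM in B. Ucp1, the uncoupling protein that defines brown fat, was at 3.46 to 44.2 CPM in U and at 0.06 to 0.07 CPM in B, and Adipoq, an adipocyte hormone, at 2737 to 4128 CPM in U and 4.39 to 121 CPM in B. Of the 8 smooth muscle markers and the 9 urothelium markers, all were lower in U. The part of these cell types in the higher member level was not tested.

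Other mitochondrial gene lists showed the same direction in U against B. All 19 genes of the tricarboxylic acid cycle and pyruvate dehydrogenase were higher (median log2 fold change 1.87), as were 16 of 17 fatty acid oxidation genes (2.06, with 1 lower), 64 of 77 mitochondrial ribosomal protein genes (0.88) and 35 of 41 assembly factors (0.88). Of 17 glycolysis genes 10 were higher and 7 lower. Among regulators of mitochondrial biogenesis, the coactivator Ppargc1a had 7.60 to 10.1 CPM in B and 16.1 to 23.7 CPM in U (log2 fold change 1.53 ± 0.16, adjusted p = 6.9e-06, edgeR). The mitochondrial transcription factor Tfam (adjusted p = 0.99), Nrf1 (adjusted p = 0.18) and the nuclear receptor Esrra (adjusted p = 0.93) were not called in the edgeR fit. Of the 11 regulators tested 6 were higher and 2 lower (median 0.52).

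In cancerous ureters the members were lower than in untreated ureters. Of 82 tested, 64 were lower in UT than in U and 1 was higher at an FDR under 0.1 from edgeR, where 24.7% of 15621 genes were called lower and 29.4% higher. At a fold of at least 2, 29 members were lower against a background of 14.4% and none higher against 18.5%. The median log2 fold change was -0.87 over the members and 0.08 over all genes. At that fold 15 members were lower without U 3L (13.9% of all genes), 18 with all 11 UT libraries (12.3%) and 6 with library totals alone (9.96%). In CPM, 18 members did not overlap between the 10 UT libraries of the fit and U with UT lower, against 6.78% of all genes, and none with UT higher, against 20.7%. With UT 9 included 5 did not overlap (Atp5b, Ndufa10, Ndufs3, Ndufs7 and Sdha), against 4.39%. All 19 core subunits, the catalytic and conserved proteins of the complexes, were among those called lower.

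Sdha and some large core subunits separated the groups. In the 10 UT libraries of the fit Sdha had 254 to 674 CPM with a median of 384, below the 1004 CPM of the lowest U library, and a log2 fold change of -1.91 ± 0.28 (adjusted p = 3.8e-05, edgeR). Ndufs1 had 58.8 to 189 CPM in UT against 256 to 361 CPM in U (-1.65 ± 0.27, adjusted p = 8e-05, edgeR). Uqcrfs1 had 167 to 300 CPM in UT, also below every U library (-1.40 ± 0.24, adjusted p = 0.00011, edgeR). Atp5b had 933 to 2303 CPM in UT against 2748 to 3290 CPM in U (-1.15 ± 0.25, adjusted p = 0.00073, edgeR). None of these 4 genes overlapped between the 10 UT libraries of the fit and U, while UT 9, left out of it, reached 264 CPM for Ndufs1 and 425 CPM for Uqcrfs1, within the range of U.

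Cycs had 278 to 696 CPM in UT with a median of 491, and its highest UT library exceeded the lowest U library at 642 CPM (-1.18 ± 0.29, adjusted p = 0.0024, edgeR). Sdhb fell by 1.32 ± 0.26, Sdhc by 1.12 ± 0.21 and Sdhd by 0.78 ± 0.22 on the log2 scale, all past the threshold. By complex, 29 of 37 genes were lower in complex I, 4 of 4 in complex II, 6 of 8 in complex III, 12 of 15 in complex IV and 12 of 17 in complex V.

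Cox8b and Cox7a1 had the largest differences. Cox8b had 0.22 to 74.0 CPM in UT with a median of 5.31, against 118 to 264 CPM in U, a log2 fold change of -3.90 ± 1.04 (adjusted p = 0.004, edgeR). Within UT it was below 2 CPM in UT 2, 4, 5R, 5L and 10 and above 40 CPM in UT 6 and 7, and UT 9, outside the fit, had 126 CPM. Cox7a1 had 0.41 to 8.01 CPM in UT (-2.38 ± 0.81, adjusted p = 0.019, edgeR). Cox8a (-1.08 ± 0.46, adjusted p = 0.059) and Cox7a2 (-0.91 ± 0.39, adjusted p = 0.059) were also called lower in the edgeR fit. Whether the restricted and the ubiquitous forms differed in their change was not tested.

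Atp5g1 was the 1 member called higher. It had 129 to 298 CPM in UT with a median of 183 and 85.2 to 136 CPM in U, where only U 3L reached the range of UT, with a log2 fold change of 0.67 ± 0.25 (adjusted p = 0.032, edgeR). Atp5g2 (-0.26 ± 0.36) and Atp5g3 (-0.77 ± 0.24, adjusted p = 0.01, edgeR), the other genes for the same c subunit, were not higher. Ndufa4l2 was not called (1.15 ± 0.68, adjusted p = 0.17, edgeR). It stood at 19.9 CPM in UT 2, 26.1 in UT 4 and 24.4 in UT 10, and at 0.93 to 3.49 CPM in the other UT libraries, against 2.42 to 3.27 CPM in U. In the same 3 libraries the 17 glycolysis genes summed to 19876, 15685 and 22564 CPM, with 6838 to 10021 CPM in the other UT libraries.

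The median stayed below 0 in every alternative fit, while the number called moved. Counts of members lower were 36 with the ureters of a mouse summed (15.5% of all genes), 43 without U 3L, the U library with the highest sum (23%), 43 with RIN as a covariate (22.3%) and 47 with library totals alone (15.3%), under which the median of all genes rose by 0.33 on the log2 scale and Cox7a2l and Ndufa4l2 were also called higher.

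Fat differed here too. All 8 white adipocyte markers were lower in UT than in U, and their sum ran from 65.8 CPM in UT 2 to 44830 CPM in UT 9 with a median of 14540, against at least 53390 CPM in U. Of the 7 brown adipocyte markers tested 5 were lower, and Ucp1 was at 0 in UT 2, which allows up to 0.216 CPM (3 counts), and at its highest in UT 9 (21.4 CPM). Smooth muscle markers were lower in 8 of 8, and 7 of 8 leukocyte markers were higher. UT 4 had kidney tubule markers at 2974 CPM, including Slc34a1, the phosphate transporter of the proximal tubule, at 514 CPM, where no other library exceeded 245 CPM for the sum; without UT 4 the count of members lower was 64, the same as with it. The part of these cell types was not tested.

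**Figure D3:**
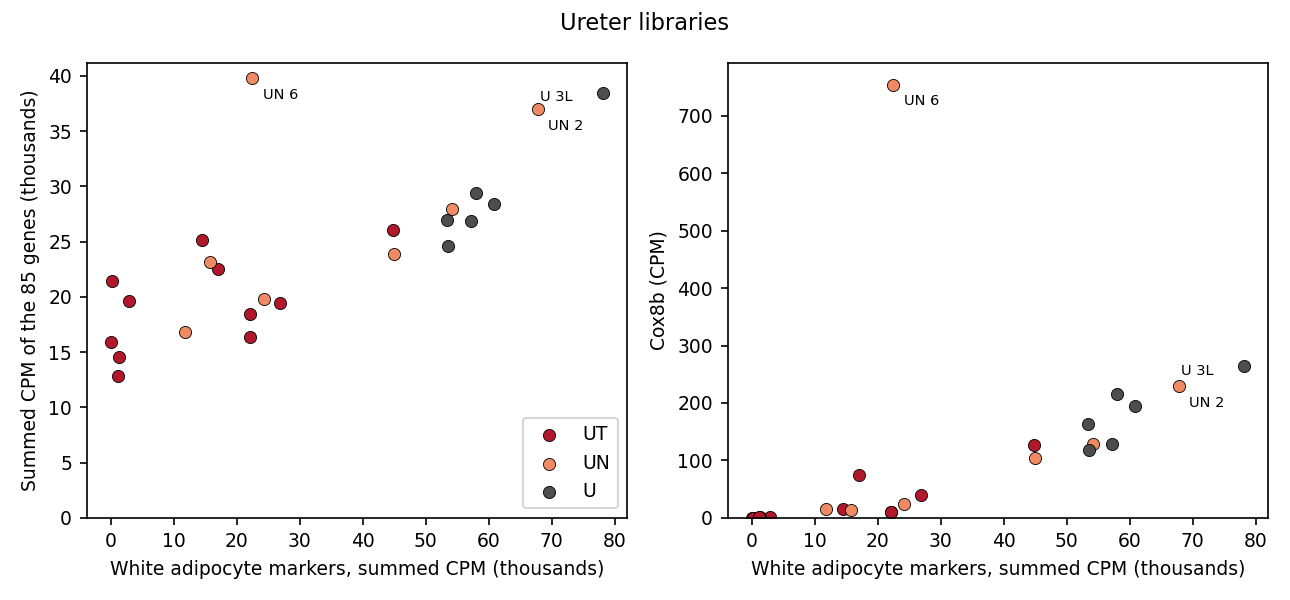
Summed CPM of the 85 genes (left, kCPM) and Cox8b CPM (right) against the summed CPM of 8 white adipocyte markers (horizontal axis, kCPM) in the 24 ureter libraries, coloured by group. The U libraries lie at the right at 53390 CPM or more of adipocyte markers, as do UN 2 (67805 CPM) and UN 9 (54159 CPM). UN 6, with a Cox8b level of 754 CPM, stands apart in both panels.

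The tricarboxylic acid cycle genes were lower in UT than in U in 19 of 19 (median log2 fold change -1.51), fatty acid oxidation genes in 16 of 17 (-1.96), assembly factors in 26 of 41 (-0.61) and mitochondrial ribosomal protein genes in 29 of 77 (-0.40). Glycolysis genes were higher in 6 and lower in 2 of 17. Ppargc1a had 0.50 to 47.3 CPM in UT (-1.03 ± 0.59, adjusted p = 0.16, edgeR), and Nrf1, a regulator of nuclear genes for mitochondrial proteins, was higher at 0.94 ± 0.20 (adjusted p = 0.00068, edgeR). Tfam (-0.01 ± 0.12, adjusted p = 0.95) and Esrra (-0.21 ± 0.15, adjusted p = 0.27, both from edgeR) were not called, and of all 12 regulators of mitochondrial biogenesis 2 were higher and 4 lower (median -0.25).

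Between the cancerous and the noncancerous side of BBN-treated mice, the members were lower in UT, and the number called depended on UN 2 and UN 6. Of 82 tested, 60 were lower and none higher at an FDR under 0.1 from edgeR, where 12.3% of genes were called lower and 6.27% higher. With a fold of at least 2, 33 were lower against a background of 8% and none higher against 2.8%. At that fold 1 member was lower without UN 6 (2.41% of all genes), 10 with library totals alone (1.87%), 14 with limma-trend (6.23%) and none without UN 2 and UN 6. The median log2 fold change was -0.89 over the members and -0.01 over all genes. No member was without overlap in CPM between the groups, as held for nearly all genes (2 of 15621 did not overlap). With all 11 UT libraries 49 were lower against 6.28% of genes. DESeq2 called 71 lower (15.7% of all genes) and Ndufa4l2 higher (1.63 ± 0.62, adjusted p = 0.05), limma-trend called 43 lower (9.69%), and library totals alone gave 19 lower (2.4%).

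The largest differences were those of Cox8b (-4.26 ± 1.03, adjusted p = 0.034), Cox7a1 (-3.09 ± 0.81, adjusted p = 0.035) and Cox8a (-1.77 ± 0.45, adjusted p = 0.035, all from edgeR). Cox8b had 13.7 CPM at the lowest, 105 at the median and 754 at the highest in UN, with 229 CPM in the next library below UN 6. Cox8a had 338, 577 and 3118 CPM in UN, the highest again in UN 6, the library with a RIN of 3.2. Without UN 6 Cox8b stayed past the threshold (-2.83 ± 0.92, adjusted p = 0.0996), while Cox7a1 (-1.33 ± 0.64, adjusted p = 0.21) and Cox8a (-0.81 ± 0.31, adjusted p = 0.13, all from edgeR) were no longer called. Sdha, in contrast, had 423 CPM in UN 6 and its highest value, 1255 CPM, in UN 9 (-0.94 ± 0.27, adjusted p = 0.043, edgeR).

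Without UN 6, 11 members were lower against a background of 3.67% and none higher against 1.88%, and without UN 2, the library with hardly any urothelium markers, 32 were against 6.46%. Without both, no gene at all was called among 15735, 16 members had an unadjusted p under 0.05 in edgeR, and the members' median was -0.35. In other edgeR fits the calls were lost for nearly all genes and not for the members alone. With RIN as a covariate 0 of 15621 genes were called, and the members had a median of -0.50 with 20 at an unadjusted p under 0.05. With the ureters of a mouse summed 4 genes were called, none a member, and the median was -0.85 (69 members at an unadjusted p under 0.05). With the UT and UN libraries alone 2 genes were called, none a member, and the median was -0.90 (70 members). Libraries of the first library code range alone gave 18 genes higher and 9 lower, none a member, and a median of -0.74 (55 members). With mouse as a replicate block 0 of 14870 genes were called, and the median was -0.54 (0 members).

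Markers of several cell types moved with the members in UT against UN. White adipocyte markers were lower in 4 of 8 and brown adipocyte markers in 5 of 7 tested, with median log2 fold changes of -2.01 and -2.33. The white adipocyte sum was 65.8 to 26860 CPM in the 10 UT libraries and 11770 to 67810 CPM in UN, and the brown adipocyte sum was 2.47 to 487.3 CPM and 123.1 to 1329 CPM. Smooth muscle markers were lower in 6 of 8 and summed to 373.1 to 2580 CPM in UT and 340.2 to 6744 CPM in UN. All 6 erythroid markers were lower (107.4 to 3612 CPM against 248.3 to 12850 CPM), and 3 of 6 kidney tubule markers tested were higher. The sums of these lists overlapped between the groups. Without UN 6, 1 brown and no white adipocyte marker passed the threshold in edgeR, with medians of -2.24 and -2.03. The part of these cell types in the lower member level was not tested.

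Other mitochondrial lists were lower in UT than in UN as well, in 16 of 19 tricarboxylic acid cycle and pyruvate dehydrogenase genes (median log2 fold change -0.74), 14 of 17 fatty acid oxidation genes (-1.01), 18 of 41 assembly factors (-0.49) and 17 of 77 mitochondrial ribosomal protein genes (-0.40), with none higher. Without UN 6 these counts were 13, 14, 3 and 1. Of 17 glycolysis genes 3 were higher and 1 lower, and of the 12 regulators of mitochondrial biogenesis 1 was higher and 1 lower.

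Within mice, UT was below UN in 4 of the 6 mice with both in the fit. The sums of the members in UT and UN were 25180 and 19810 CPM in mouse 1, 15880 and 36960 in mouse 2, 18490 and 23150 in mouse 3, 21430 and 23880 in mouse 4, 22520 and 39810 in mouse 6, and 19480 and 16810 in mouse 7. Mice 2 and 6 thus carried the large differences, and mice 1 and 7 went the other way. In mouse 2, 82 of the 85 members were lower in UT, and in mouse 7, 7 were. In mouse 9, whose UT library was left out of the fit, the sums were 26070 and 27910 CPM, with 51 members lower in UT. These are counts within single pairs of libraries, and the share over all genes in a pair was not calculated.

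The noncancerous side was set against untreated ureters next. Of 82 members 6 were lower and 1 higher in UN than in U, where 5.67% of genes were called lower and 15.1% higher, so that the share of members lower was close to the background. At a fold of at least 2 there was 1 lower, Ndufs1, against 1.66%, and none higher against 11.8%. No member was without overlap in CPM, against 2.09% of genes with UN higher and 1.3% with UN lower. The median was 0.08 for the members and for all genes. The members called lower were Ndufs1 (-1.01 ± 0.30, adjusted p = 0.028), Sdha (-0.96 ± 0.31, adjusted p = 0.042), Uqcrc1 (-0.75 ± 0.26), Ndufa10 (-0.73 ± 0.25), Uqcrc2 (-0.57 ± 0.21) and Atp5a1 (-0.54 ± 0.20, all from edgeR), the same 6 also with RIN as a covariate. Sdha had 279 to 1255 CPM in UN with a median of 595, and only UN 9 reached the range of U. Atp5g1 was the 1 higher, with 106 to 263 CPM in UN (0.81 ± 0.27, adjusted p = 0.048, edgeR). Without UN 2, 18 of the 82 members were lower against 6.68% of all genes, a share above the background.

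Of other mitochondrial lists, 11 of 19 tricarboxylic acid cycle and pyruvate dehydrogenase genes (median log2 fold change -0.78) and 10 of 17 fatty acid oxidation genes (-0.89) were lower in UN than in U, with none higher. Without UN 6, where 6.37% of all genes were called lower, these counts were 10 and 5. Assembly factors were lower in 8 and higher in 1 of 41 (median -0.20), and of 77 mitochondrial ribosomal protein genes none was lower and 1 higher (0.06). Of the 12 regulators of mitochondrial biogenesis 1 was lower and none higher. Leukocyte markers were higher in 5 of 8 (median 1.69), and their sum was 264.7 to 6444 CPM in UN and 372.2 to 740.9 CPM in U, with the lowest UN value in UN 6. No adipocyte marker passed the threshold in edgeR, with medians of -0.95 for the 8 white and -0.77 for the 7 brown markers tested. The white adipocyte sum was 11770 to 67810 CPM in UN and 53390 to 78090 CPM in U, so that the groups overlapped. The part of these cell types was not tested.

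The 6 lower members have long transcripts, and without UN 6, 5 of them were still called lower, against 6.37% of all genes. Splitting the 84 members with an annotated transcript at their median length of 729 bases, the 39 shorter members tested had a median log2 fold change of 0.31 and the 42 longer ones -0.23 in UN against U. Over other genes the same split gave 0.86 for the 354 short genes and 0.06 for the 13788 longer ones. Without UN 6 the medians were -0.16 and -0.31 for the members, and 0.51 and 0.03 for the 351 short and 13750 longer other genes. The ratio of summed CPM of shorter to longer members was 2.14 in UN 6 and 0.58 to 0.89 in the other UN libraries, and 0.54 to 0.72 in U. Without UN 2 and UN 6 the members had a median of -0.53 and 28 were lower, against 8.22% of all genes, and with the ureters of a mouse summed none was called, with 6 at an unadjusted p under 0.05 in edgeR.

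**Figure D4:**
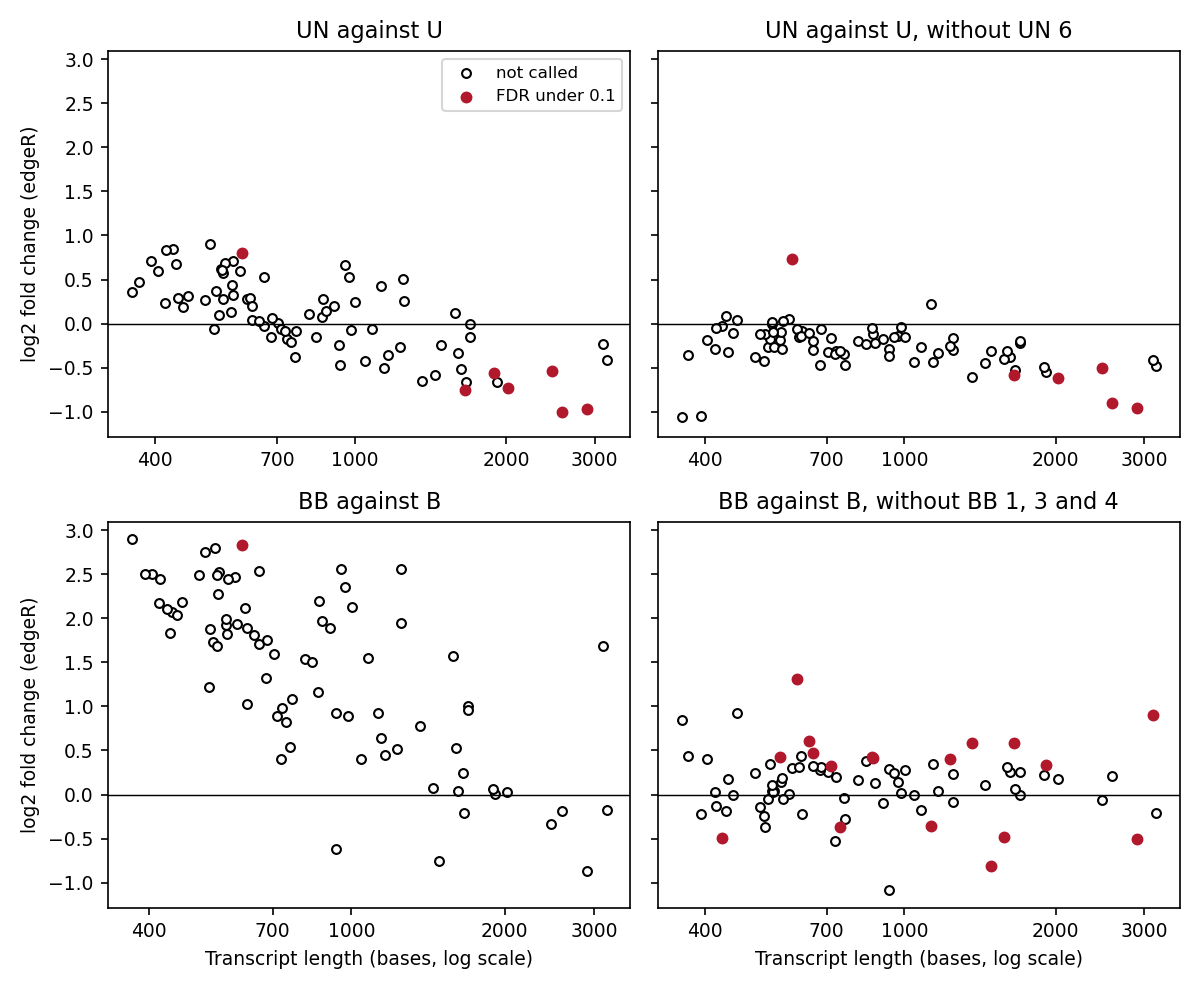
Log2 fold change from edgeR (vertical axis) against transcript length in bases (horizontal axis, log scale) for UN against U and BB against B, with all libraries of the fit (left) and without UN 6 or without BB 1, 3 and 4 (right); filled points passed an FDR of 0.1. In BB against B the short members lie highest, with 3 members at or above 4 not drawn (Cox6a2, Cox7b2 and Cox8b), and without the libraries of low RIN the called members lie at all lengths and on both sides of 0.

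In BBN-treated against untreated bladders, the members had a median log2 fold change of 1.70 with 0.25 over all genes, yet 1 of 84 tested was called higher and none lower in edgeR (16 at an unadjusted p under 0.05), where 7.52% and 6.2% of 17997 genes were called. That member also passed a fold of 2 (7.22% of genes higher and 5.47% lower did). In CPM 9 members did not overlap with BB higher, the same number with BB 6 included, against 5.5% of genes, and 2, Atp5s and Sdha, with BB lower, against 12.5%. The 41 shorter members tested had a median of 2.11 and the 42 longer ones 0.86, and among other genes the short ones had 2.19 and the longer ones 0.16. The ratio of shorter to longer members was 2.15 to 2.68 in BB 1, BB 3 and BB 4, 1.46 in BB 6, 0.60 to 0.78 in the other BB libraries and 0.62 to 0.66 in B. Cox8a, which has a short transcript, had 2597 CPM at the highest in BB 4, while Sdha, with a long one, was at 40.0 CPM in the same library. DESeq2 called 51 members higher, against 27.3% of all genes, and Sdha lower, against 9.57%.

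Without the 3 bladders of low RIN, 12 members were higher and 6 lower, shares below the 22.8% and 19.1% of all genes, and the median was 0.16 with 0.04 over all genes. Ndufa4 had the largest rise, with 346 to 676 CPM in these 6 BB libraries and 185 to 236 CPM in B (1.31 ± 0.21, adjusted p = 0.0013, edgeR). It was also the 1 member called with all 9 bladders (2.84 ± 0.99, adjusted p = 0.095, edgeR), and no B library could be left out without losing that call. Cycs had 247 to 531 CPM against 191 to 223 CPM in B (0.90 ± 0.23, adjusted p = 0.013, edgeR). Cox5a, a subunit of complex IV, rose by 0.61 ± 0.16, Uqcrfs1 by 0.59 ± 0.13 and Uqcrc1 by 0.58 ± 0.16, each past the threshold.

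Sdha was lower in the same 6 bladders, with 300 to 352 CPM against 438 to 462 CPM in B (-0.51 ± 0.10, adjusted p = 0.0035, edgeR), and the groups did not overlap. Cox4i1, the ubiquitous form of complex IV subunit 4, was lower by 0.37 ± 0.13 on the log2 scale (adjusted p = 0.047, edgeR) in these libraries, with the opposite sign in the fit of all 9 (0.83 ± 0.74). The other members called were Cox5b, Ndufa12, Atp5b, Ndufa8, Atp5g3, Ndufb6 and Sdhd, which were higher by 0.32 to 0.47, and Uqcr10, Ndufv3, Cox7a2l and Atp5s, which were lower by 0.36 to 0.82. Of the 9 urothelium markers 5 were lower and 1 higher in the same fit, summing to 3216 to 6135 CPM in the 6 libraries and 17660 to 18520 CPM in B. All 8 smooth muscle markers were lower (2340 to 7447 CPM against 9289 to 11150 CPM). The part of either in these differences was not tested. Of 16 fatty acid oxidation genes tested 14 were lower, and of 17 glycolysis genes 9 were higher and 2 lower.

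The carcinogen response of the ureter was set against that of the bladder by the difference of UN against U and BB against B. None of 84 members was called in either direction in edgeR (11 at an unadjusted p under 0.05), where 1.65% of 18769 genes were called higher and 0.682% lower, and the median was -1.49 with -0.12 over all genes. Without BB 1, 3 and 4 and UN 6, the libraries with a RIN of 3.2 or below (U 1R, with 4.7, stayed in), the median was -0.41, and Uqcrc1 (-1.15 ± 0.29, adjusted p = 0.021) and Ndufa4 (-1.34 ± 0.44, adjusted p = 0.075, both from edgeR) were called lower, where 3.84% of genes were called lower and 6.57% higher. Both had a lower response in the ureter than in the bladder. DESeq2 called 4 members lower with all libraries, against 2.86% of all genes, namely Cox8b, Ndufa4, Cycs and Uqcrfs1.

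The restricted forms of complex IV made up a variable part of their pairs. Cox8b took 15.6% to 23.7% of the summed Cox8a and Cox8b CPM in U, 2.32% to 19.5% in UN, 0.07% to 15.3% in UT, 0.03% to 4.69% in BB and 0.08% to 0.40% in B. In UT it was highest in UT 9, the library that also had the most adipocyte markers in that group. Cox7a1 took 1.27% to 4.09% of its pair with Cox7a2 in U, 0.37% to 5.65% in UN, with the highest share in UN 6, 0.28% to 3.07% in UT, 0.36% to 1.97% in BB and 0.89% to 1.26% in B. The range of B lay just below that of U, and the other ranges overlapped both. Cox4i2, a form of subunit 4 known from lung and hypoxic cells, took at most 0.49% of its pair in any library, and Cox6b2, known from testis, 0.20% to 3.75%.

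**Figure D5:**
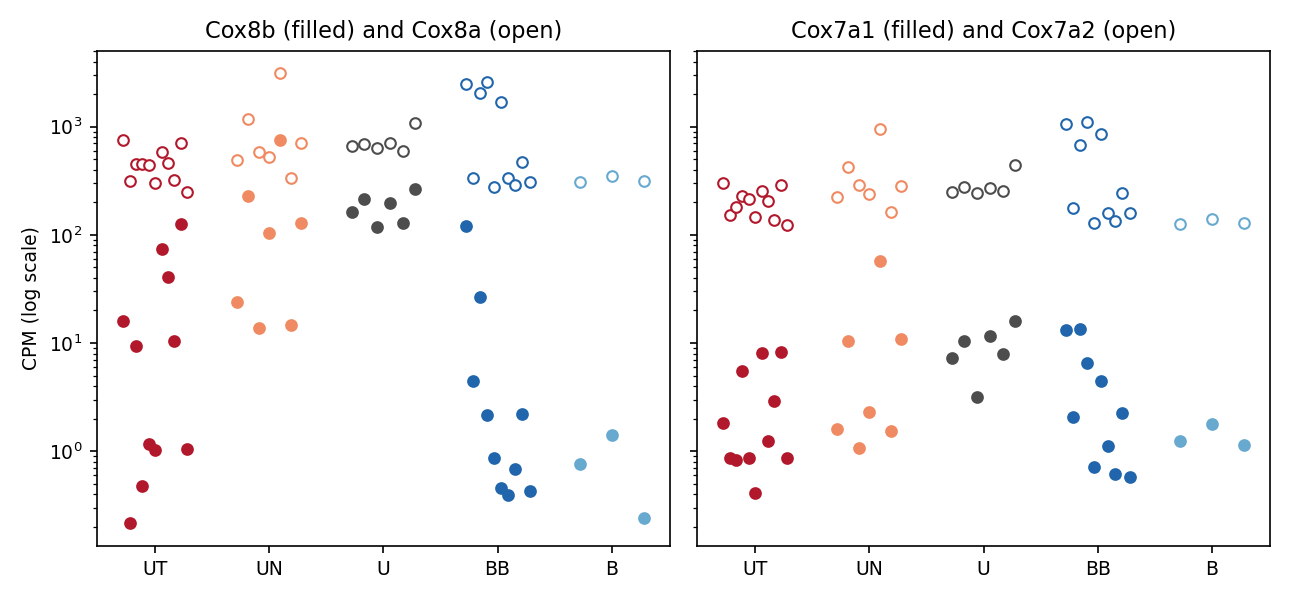
CPM (vertical axis, log scale) of Cox8b and Cox8a (left) and of Cox7a1 and Cox7a2 (right) in each of 37 libraries (points) by group, the restricted form filled and the ubiquitous form open. Cox8b lies between 118 and 264 CPM in U and at 1.40 CPM or below in B, while Cox8a stands at 247 CPM or above in every library.

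Cox6a2, the heart and skeletal muscle form of subunit 6a, was at 0 in the 3 B libraries, which allows up to 0.18 to 0.209 CPM there (3 counts, counting error only), and at 0.053 CPM or below in U, and reached 27.9 CPM in BB 1. The sum of 10 striated muscle markers was 13.98 to 164.8 CPM in BB and 220.4 to 269.9 CPM in B. Gene by gene, however, their median log2 fold change was 2.78 in BB against B, with none called higher and 1 lower in edgeR. Without the bladders of low RIN it was 0.78 over the 9 tested, with 1 higher and 3 lower. The part of muscle in the level of Cox6a2 was not tested. Cox8c, a testis form, passed the filter on low counts in no comparison.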

How the data were processed

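Messenger RNA of 37 whole-tissue libraries was measured by RNA sequencing. Per the submitters' processing notes the reads were handled with TopHat2 2.1.1 and Cuffdiff 2.2.1 on GRCm38 (mm10), and the authors deposited 1 table of estimated counts per gene, of which 21.09% of the values above 0 are not whole. How the counting treated strand and shared reads is not given in the sources used here. The counts were rounded, genes with low counts were removed with filterByExpr, and libraries were scaled by TMM. The quasi-likelihood test of edgeR 4.0.16 (R 4.3.3) was fitted across all genes, with UT, UN and U in 1 fit, each bladder comparison in its own, and Benjamini-Hochberg adjustment. An FDR of 0.1 and a fold of 2 follow the study. UT 9 and BB 6 were left out of the fits. CPM was calculated from the table's totals. Transcript lengths came from protein-coding transcripts of GENCODE vM21, found by symbol for 84 of 85 members, of which 83 matched a single gene (2 overlapping genes are named Atp5o).

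Total counts were 3557697 to 18793560, and their precision is counting error only. Alternatives were RLE scaling, library totals, no filter, DESeq2 1.42.0, limma 3.58.1, RIN as a covariate, summed ureters, mouse as a block and libraries left out. UT 4, U 3L, UN 2 with UN 6, and the first library code range were added after the data were seen. The members and lists were chosen with earlier results of these data known. Genes to be named, whatever their values, were core subunits, tissue-restricted isoforms with their partners (Ndufa4l2 with Ndufa4 among them), the 4 Sdh genes, Cycs and 6 genes of other lists (Ppargc1a, Tfam, Nrf1, Esrra, Ucp1, Slc34a1). The 3 members with the largest change in each direction among those called joined them in each comparison. All others, the marker genes Adipoq and Upk2 included, were named after their values were seen.

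A UT and a UN library that share a number came from 1 mouse, so mouse was a block in an alternative. Their deviations from the group means correlated at a median of -0.03 over 6 pairs (-0.24 to 0.12), with -0.02 over 64 pairs of different mice. No libraries of a group agreed within sampling noise (lowest chi-square per degree of freedom 7.71).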

Additional observations from a re-analysis of the deposited data

Results flagged for a closer look

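Of 157 groups of values tested for a sample far from the others, 29 stood out by Dixon's criterion, where chance gives about 1 in 20. Of these 20 were in U, and 19 of them had U 3L as the highest of 6 libraries. Its summed CPM was 38481 over all members (29358 in the next library), 11828 for complex I, 7668 for complex IV and 10841 for complex V. Single genes highest in U 3L were Atp5c1 (956.3 CPM), Cox4i1 (1425), Cox5b (482.4), Cox6a1 (665.8), Cox6b1 (787), Cox6b2 (7.75), Cox7a2 (442.2), Cox7b (359.2), Cox8a (1091), Ndufa4 (752.2), Ndufs3 (281.1), Ndufs7 (445.3), Ndufs8 (275.2), Ndufv2 (492.5) and Sdhc (233.3). Ndufa4l2 was lowest in U 1L at 2.42 CPM.

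In UN, the library UN 6 was far above the others for Cox7a1 (57.3 CPM), Cox7a2 (958.1), Cox8a (3118) and Cox8b (754.2), and UN 2 for Cox5a (499 CPM). In UT, Cox4i1 was at 1120 CPM in UT 1. In BB, Cox8b was at 121.2 CPM in BB 1, and BB 6 had 1322 CPM of Cycs and 507.3 CPM of Sdhd.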

How the results depend on the processing

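Of 268 alternative values for counts, medians and summed CPM of the members, 221 stayed within the limits set. A median or sum within its limit counted among the 221 even where its sign changed. In UT against UN the number of members lower (60) was 19 with library totals alone and 0 with RIN as a covariate, with summed ureters, with UT and UN libraries alone, without UN 2 and 6, and with the first library code range alone, and DESeq2 called 1 higher. Those 5 fits called 0, 4, 2, 0 and, in the last, 18 higher and 9 lower of all genes, with member medians of -0.50, -0.85, -0.90, -0.35 and -0.74. With mouse as a replicate block, which uses the pairing of both sides in a mouse, it was 0, with 0 at an unadjusted p under 0.05, and 0 of all genes were called. In U against B the block, fitted on summed ureters, called the same 79 members. Leaving out 1 library in UT against UN gave 11 (without UN 6, 3.67% of all genes) to 73 (without UN 7, 16.4%), and 32 without UN 2 (6.46%).

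In UT against U the number higher (1) was 3 with totals alone (42.8% of all genes) and 2 without a filter (20.7%). It was 0 with summed ureters (17.6%), where 36 were lower (15.5%). In UN against U the number higher (1) was 2 without a filter (8.71% of all genes) and 0 with summed ureters (0.908%) or without UN 2 and 6 (17.1%). The number lower (6) was 11 with limma (8.5% of all genes) and 11 with the first code range (10.6%). It was 0 with summed ureters (0.104%) and 28 without UN 2 and 6 (8.22%). The median, 0.08 with all libraries, was below 0 without UN 2 and 6 (-0.53), without UN 6 (-0.26), with RIN as a covariate (-0.19), with limma (-0.14), without UN 2 (-0.08) and without a filter (-0.01). Leaving out 1 library gave 0 to 1 higher. It gave 3 lower without UN 3 (2.84% of all genes) to 18 lower without UN 2 (6.68%), with 11 without UN 9 (9.26%).

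In BB against B the number higher (1) was 51 with DESeq2 (1 lower), where 27.3% of all genes were higher. It was 2 with RIN as a covariate (12.6% of all genes) and 7 with the first code range (14.2%). Without the bladders of low RIN it was 12 (6 lower), where 22.8% of all genes were higher. It was 0 without a filter (4.45%), with limma (6.51%) or without any 1 of the B libraries (2.68% to 2.73%). The median was 0.96 with limma, 0.22 with RIN as a covariate and 0.16 without the bladders of low RIN, where Cox4i1 turned to -0.37. In U against B totals alone gave 3 lower (53% of all genes) and a median of 1.05, and leaving out 1 library gave 0 to 2 lower (2 without U 3L, 35.9%). For the difference of the carcinogen responses the number lower (0) was 4 with DESeq2 and 2 without BB 1, 3 and 4 and UN 6, with a median of -0.41. The cause of these changes was not tested, except that summing, leaving out and the block leave fewer samples in the fit.

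The bladder comparison had 3 untreated libraries, UN 6 and BB 1, 3 and 4 had degraded RNA, and the ureters of a mouse are not independent. Scaling by library totals moved the median log2 fold change of all genes by 0.22 in UT against UN, 0.33 in UT against U, 0.10 in UN against U, -0.26 in BB against B and -0.38 in U against B.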
